A study of Mus musculus with 6 samples.

Results

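Acute phase proteins are plasma proteins whose production by the liver shifts during inflammation, and interleukin 6 (IL-6) is the cytokine best known for driving them. The transcripts of 10 genes of this system were examined in mouse liver RNA-seq: the serum amyloid A genes Saa1, Saa2 and Saa3, C-reactive protein (Crp), haptoglobin (Hp), the orosomucoids Orm1 and Orm2, lipocalin 2 (Lcn2), the transcription factor Stat3 and its feedback inhibitor Socs3. They were picked by gene symbol from 18453 genes with a count in at least 1 library, and all 10 passed the filter on low counts that left 13431 genes for testing.

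The samples were the livers of 6 male Mettl14f/f mice, 3 that received AAV8-TBG-GFP as control and 3 that received AAV8-TBG-Cre. Mettl14 encodes a subunit of the enzyme complex that writes N6-methyladenosine onto mRNA, and every animal carried the floxed alleles, the controls included. AAV8-TBG vectors are derived from an adeno-associated virus and carry the promoter of thyroxine-binding globulin, which limits Cre or GFP to hepatocytes, so macrophages, bile duct cells and the other cells of the liver are not its target. High-fat feeding began at 8 weeks of age in both groups, the vector was given into the tail vein after 10 weeks on this diet, and RNA was taken 8 weeks later. The sample labels give the genotype of the control animals as WT and that of the AAV8-TBG-Cre animals as METTL14 KO.

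IL-6 binds its receptor Il6ra together with the shared signalling subunit Il6st (gp130), the attached Janus kinases phosphorylate STAT3, and STAT3 enters the nucleus and acts with C/EBP factors on acute phase genes in hepatocytes. STAT3 also switches on Socs3, whose product binds gp130 and the kinases and turns the signal down. IL-1 and TNF act in parallel through NF-kB, and serum amyloid A is the classical product of the combined signal, while in mice CRP is a minor acute phase protein and serum amyloid A and orosomucoid are the strongly inducible ones.

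The promoters of the serum amyloid A genes and of Socs3 are shown because these were the members that met the threshold described below, and because Saa1 and Saa2 are near copies of each other. Each sequence is the RefSeq sense strand of mouse build GRCm38.p6, the assembly also called mm10, from 250 bases before to 50 bases after the annotated start. For Saa1, Saa3 and Socs3 the start used lies inside the gene coordinates given below, which reach further upstream. Saa1 is at chr7:46742931-46743230 on the minus strand, Saa2 at chr7:46751583-46751882 on the plus strand, Saa3 at chr7:46715627-46715926 on the minus strand and Socs3 at chr11:117969317-117969616 on the minus strand. Capitals mark the letters TTNNGNAA on either strand, a core that C/EBP factors bind, in the 3 serum amyloid A genes, and TTCNNNGAA, the palindrome that STAT factors bind, in Socs3.
Saa1: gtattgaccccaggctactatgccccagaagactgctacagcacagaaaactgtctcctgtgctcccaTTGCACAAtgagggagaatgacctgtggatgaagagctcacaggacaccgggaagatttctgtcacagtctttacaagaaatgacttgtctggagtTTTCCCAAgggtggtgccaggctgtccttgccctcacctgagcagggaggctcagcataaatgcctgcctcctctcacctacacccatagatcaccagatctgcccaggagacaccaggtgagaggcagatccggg
Saa2: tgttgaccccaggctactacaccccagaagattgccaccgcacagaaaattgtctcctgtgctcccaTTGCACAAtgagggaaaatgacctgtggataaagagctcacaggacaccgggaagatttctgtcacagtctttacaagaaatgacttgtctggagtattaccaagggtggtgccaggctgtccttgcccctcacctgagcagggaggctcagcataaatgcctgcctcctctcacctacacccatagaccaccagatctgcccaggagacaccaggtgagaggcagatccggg
Saa3: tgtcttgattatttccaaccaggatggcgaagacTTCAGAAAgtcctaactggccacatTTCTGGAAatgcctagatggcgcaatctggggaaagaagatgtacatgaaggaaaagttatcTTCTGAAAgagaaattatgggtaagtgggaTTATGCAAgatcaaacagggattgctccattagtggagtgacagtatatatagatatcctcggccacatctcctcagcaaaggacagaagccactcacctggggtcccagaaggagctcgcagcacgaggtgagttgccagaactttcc
Socs3: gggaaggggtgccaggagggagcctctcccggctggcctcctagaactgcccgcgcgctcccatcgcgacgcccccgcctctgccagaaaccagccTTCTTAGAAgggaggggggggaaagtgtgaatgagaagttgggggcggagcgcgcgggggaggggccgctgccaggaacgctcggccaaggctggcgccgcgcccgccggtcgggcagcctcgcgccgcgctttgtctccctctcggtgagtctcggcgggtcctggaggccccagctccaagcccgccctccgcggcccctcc

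The promoters of Saa1 and Saa2 were identical in 287 of 301 aligned columns (95.3%), and those of Saa1 and Saa3 in 170 of 339 (50.1%). The copies shared the C/EBP match with the letters TTGCACAA, which began 182 bases before the start in Saa1 and 183 bases before it in Saa2. A further match lay 86 bases before the start in Saa1 and had no counterpart in Saa2. Saa3 held 4 C/EBP matches, beginning 216, 191, 129 and 99 bases before its start. Of the 8 members with a promoter in the table, 7 held a C/EBP match, all except Socs3, while 40.7% of 32851 mouse promoters of this length held one. The STAT palindrome was found in 1 of the 8, Socs3, where it began 154 bases before the start, and in 8.30% of all promoters. The NF-kB motif was found in 0 of the 8 and in 8.46% of all promoters. The motif TATAAA, searched on the sense strand and present in 8.32% of promoters, lay 31 bases before the start in Crp and 33 bases before it in Orm2. Hp and Orm1 were not matched. All motifs were searched on both strands except TATAAA, no matches of different motifs overlapped, and the C/EBP match TTGCGCAA of Orm2 reads the same on both strands. These matches describe letters in the window and were not tested as binding sites.

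The coding sequences of Saa1 and Saa2 were 95.1% identical over 369 bases, those of Saa1 and Saa3 75.9% and those of Orm1 and Orm2 89.9% over 624 bases. Saa1 and Saa2 lie head to head 8652 bases apart on chromosome 7. Their deposited counts were not whole numbers in any library, and neither were those of Saa3, Crp, Orm1 and Orm2. The deposited counts are estimates that share fragments between similar transcripts. With which transcripts each member shared fragments was not examined. The split between the near copies Saa1 and Saa2, and that between Orm1 and Orm2, is less certain than their sum. Hp, Lcn2 and Socs3 had whole counts in all 6 libraries.

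The libraries held between 20356440 and 21010508 assigned fragments. Levels are given as CPM, the library's counts scaled by its TMM-adjusted size, when libraries are compared, and as FPKM, which divides by transcript length, when genes are compared. The values of a group follow the order of replicates 1, 2 and 3. Mettl14, the targeted gene, was at 6.30, 6.43 and 5.81 CPM in the controls and at 4.96, 5.38 and 4.86 CPM in the AAV8-TBG-Cre livers, a log2 difference of -0.29 with SE 0.15 and an adjusted p of 0.337 in the quasi-likelihood test of edgeR. In FPKM the highest Mettl14 value was that of AAV8-TBG-Cre replicate 2, at 2.40. The study reported much less METTL14 protein by immunoblot and less total liver N6-methyladenosine in AAV8-TBG-Cre males. Those measures were taken earlier after the vector than this RNA, and the Mettl14 values here are RNA of the whole gene. The 10 hepatocyte markers were abundant in every library, with a summed level between 85250 and 117100 CPM. In bulk liver, fewer cells of a type and less RNA per cell cannot be told apart.

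AAV8-TBG-GFP replicate 3 stood apart from the other control livers in these genes. The 10 members together took 0.444% and 0.413% of all fragments in control replicates 1 and 2 but 0.891% in control replicate 3, against 0.627%, 0.429% and 0.361% in the AAV8-TBG-Cre livers. Saa1 and Saa2 alone took 0.187% of its fragments and between 0.0160% and 0.0268% in the other 5 libraries. It was the highest of the 6 libraries for 7 of the 10 members, against 19.9% of all genes tested. Results are therefore given with and without this library. It was singled out by the values of these same members, so leaving it out raises the fold changes of the members in which it was highest. The fits without it keep control replicates 1 and 2 only.

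By length-scaled level in the controls, Hp was the most abundant member at 2754 ± 986 FPKM (SD, n = 3), followed by Saa1 at 822 ± 951 and Orm1 at 819 ± 296. Saa2 came next at 518 ± 667 FPKM, then Crp at 191 ± 19.0, Lcn2 at 148 ± 154 and Orm2 at 96.6 ± 96.7. Stat3 at 32.9 ± 5.90 FPKM, Saa3 at 13.8 ± 6.99 and Socs3 at 4.46 ± 1.02 closed the order. Hp stood at percentile 99.8 of all tested genes, and Socs3 at percentile 49.6. Among neighbours in this order, the control values of Hp and Saa1, of Stat3 and Saa3 and of Saa3 and Socs3 did not overlap, and those of every other pair of neighbours did. The rank of Saa1 rested on control replicate 3, since its FPKM was 231.8 and 315.1 in control replicates 1 and 2 and 1919 in replicate 3.

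Between the vectors, 4 of the 10 members met the threshold used by the study, an unadjusted p under 0.05 with a fold change of at least 1.2, below referred to as called. Of all 13431 genes tested, 20.5% were called. Socs3 was the 1 member called higher in AAV8-TBG-Cre livers, where 12.0% of all genes were, and Saa1, Saa2 and Saa3 were the 3 called lower, where 8.41% of all genes were. After Benjamini-Hochberg adjustment over all genes in edgeR, 0 of 10 members and 0.931% of all genes had an adjusted p under 0.05, and with DESeq2 1 member did, Saa3, where 7.44% of the genes with an adjusted p did. Without control replicate 3 the called members were Lcn2, higher, and Saa3 and Stat3, lower. In that fit 1469 of 13762 genes were called higher and 1085 lower. The 3 livers of each group did not overlap in CPM for Saa3, Crp and Socs3, 3 of 10 members against 27.0% of all genes. With 3 livers against 3, the exact two-sided permutation test of a single gene cannot fall below 0.1. It was 0.1 for these 3 members and between 0.2 and 1.0 for the other 7.

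**Figure D1:**
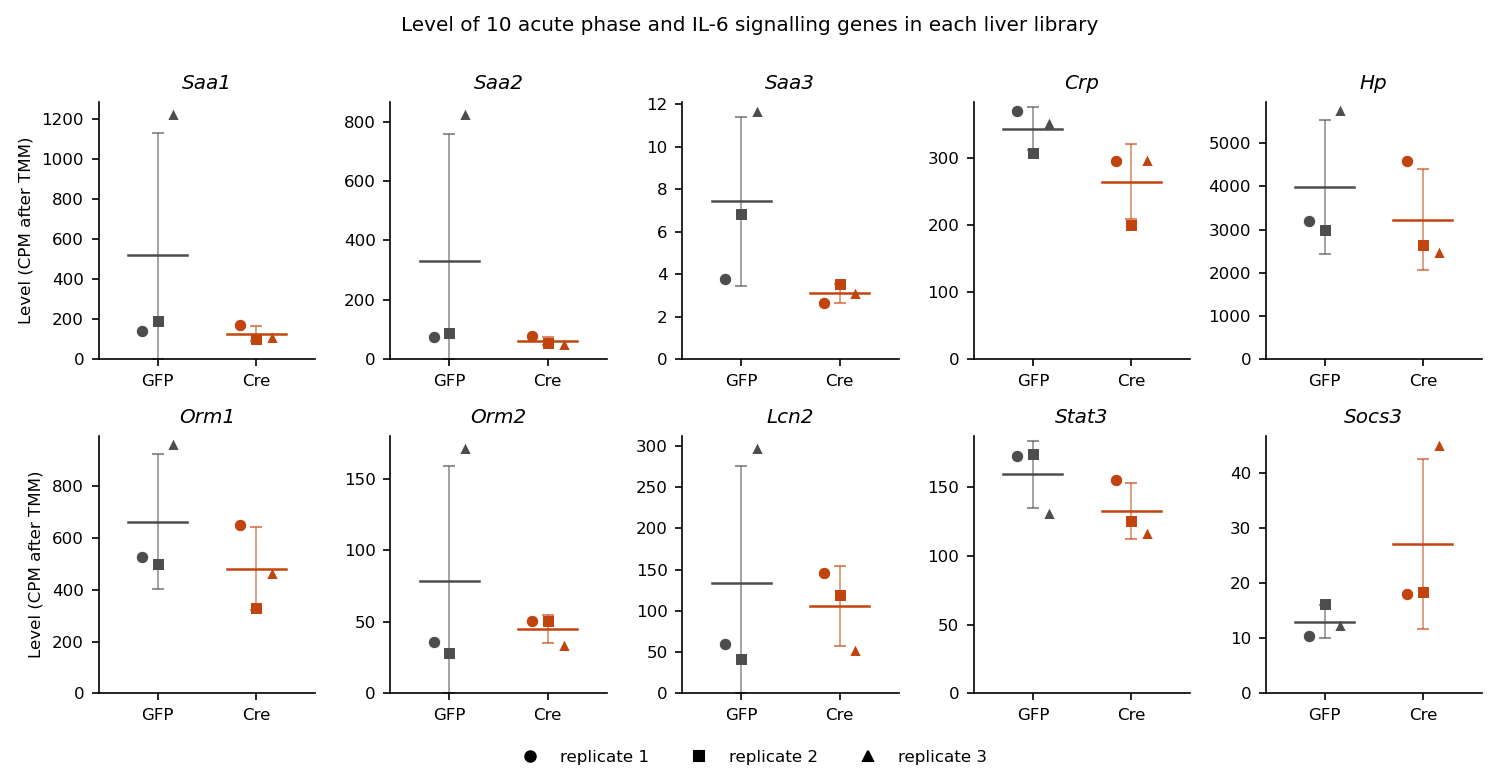
Level of each member in CPM after TMM scaling (vertical axis from 0, 1 panel per gene) in the AAV8-TBG-GFP and AAV8-TBG-Cre livers, where the symbols are replicates 1 to 3, the horizontal lines group means and the bars 1 SD, cut at 0. The triangle of AAV8-TBG-GFP replicate 3 lies above all other points for Saa1, Saa2, Saa3, Hp, Orm1, Orm2 and Lcn2, and the triangle of AAV8-TBG-Cre replicate 3 does so for Socs3.

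Saa1 and Saa2 encode the serum amyloid A proteins that hepatocytes secrete into high-density lipoprotein. Saa1 (NCBI gene 20208, GRCm38.p6 chr7:46740497-46743181) was at 139.7, 193.0 and 1224 CPM in the controls and at 169.6, 99.5 and 110.2 CPM in the AAV8-TBG-Cre livers. Saa2 (NCBI gene 20209, chr7:46751833-46754313) was at 73.3, 89.0 and 825.8 CPM in the controls and at 78.5, 55.9 and 51.8 CPM in the AAV8-TBG-Cre livers. For both genes the groups overlapped, because AAV8-TBG-Cre replicate 1 exceeded control replicate 1, and control replicate 3 lay far above all the rest.

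The level of control replicate 3 was 7.36 times the mean of control replicates 1 and 2 for Saa1 and 10.2 times for Saa2. The fitted log2 fold change of AAV8-TBG-Cre over AAV8-TBG-GFP was -2.04 for Saa1, with SE 0.78, unadjusted p = 0.0326 and adjusted p = 0.198 in edgeR. For Saa2 it was -2.41, with SE 0.89, unadjusted p = 0.0282 and adjusted p = 0.186. Without control replicate 3 the fold changes shrank to -0.41 (SE 0.26, unadjusted p = 0.166) and -0.40 (SE 0.20, unadjusted p = 0.0913), and neither gene was called. Both also lost the call without AAV8-TBG-Cre replicate 2 or 3 (unadjusted p between 0.0813 and 0.0966), where the fold change stayed about as large, at -1.89 and -1.95 for Saa1 and -2.34 and -2.30 for Saa2. With limma on FPKM, Saa1 was at -1.21 and Saa2 at -1.35 on the log2 scale and neither was called. Their adjusted p ran from 0.165 to 0.469 for Saa1 over 16 alternatives and from 0.152 to 0.48 for Saa2 over the 15 that gave a p.

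The balance between the copies also differed in that liver. The ratio of Saa2 to Saa1 in FPKM was 0.523, 0.459 and 0.671 in the controls, and 0.460, 0.559 and 0.468 in the AAV8-TBG-Cre livers. The sum of Saa1, Saa2 and Saa3 was 3228 FPKM in control replicate 3 and between 281 and 473 FPKM in the other 5 livers.

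Saa3 (NCBI gene 20210, chr7:46711998-46719615) encodes the serum amyloid A protein that macrophages and adipose tissue also make, and it was far less abundant than its relatives. It was at 3.76, 6.84 and 11.7 CPM in the controls and at 2.62, 3.53 and 3.13 CPM in the AAV8-TBG-Cre livers, on 55 to 223 fragments per library. In CPM every AAV8-TBG-Cre liver lay below every control, while in FPKM AAV8-TBG-Cre replicate 2 at 8.29 lay above control replicate 1 at 7.24. The log2 fold change was -1.26 with SE 0.39, unadjusted p = 0.0127 and adjusted p = 0.134 in edgeR, and without control replicate 3 it was -0.78 with SE 0.31 and unadjusted p = 0.0415. Saa3 was called in 15 of 16 alternatives, more than any other member, and its adjusted p ran from 0.0307 with DESeq2 to 0.304.

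Crp encodes a pentraxin that binds phosphocholine on microbes and damaged membranes. Crp (NCBI gene 12944, chr1:172698056-172699966) was at 369.0, 307.6 and 352.1 CPM in the controls and at 295.4, 199.3 and 297.1 CPM in the AAV8-TBG-Cre livers. All AAV8-TBG-Cre livers lay below all controls in CPM, though in FPKM AAV8-TBG-Cre replicates 1 and 3 lay just above control replicate 2. Control replicate 3 was not high for Crp, at 1.04 times the mean of the other controls. The log2 fold change of -0.38 with SE 0.18 had an unadjusted p of 0.0738 and an adjusted p of 0.288 in edgeR, and it was -0.37 without that library. Crp was called lower in 3 of 16 alternatives, with DESeq2 (unadjusted p = 0.0444), without AAV8-TBG-Cre replicate 1 (unadjusted p = 0.0460) and with the replicate number as a block.

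Hp encodes haptoglobin, the plasma protein that captures free hemoglobin. Hp (NCBI gene 15439, chr8:109575128-109579172) was at 3205, 2982 and 5773 CPM in the controls and at 4574, 2643 and 2476 CPM in the AAV8-TBG-Cre livers. The groups overlapped, with control replicate 3 highest and AAV8-TBG-Cre replicate 1 next. Between the vectors the log2 fold change was -0.30 with SE 0.35 and an adjusted p of 0.669 in edgeR, and it was 0.051 without control replicate 3.

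Orm1 and Orm2 encode orosomucoid, or alpha-1-acid glycoprotein, which carries basic and neutral lipophilic compounds in plasma. Orm1 (NCBI gene 18405, chr4:63344556-63348163) was at 526.4, 499.2 and 963.6 CPM in the controls and at 650.9, 331.8 and 463.8 CPM in the AAV8-TBG-Cre livers. Orm2 (NCBI gene 18406, chr4:63362449-63365877) was at 35.8, 28.2 and 171.5 CPM in the controls and at 50.6, 50.4 and 33.6 CPM in the AAV8-TBG-Cre livers. Control replicate 3 was the highest library for both, at 1.88 times the mean of the other controls for Orm1 and 5.36 times for Orm2, and the groups overlapped.

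The log2 fold change was -0.46 with SE 0.33 and adjusted p = 0.474 for Orm1, and -0.81 with SE 0.64 and adjusted p = 0.519 for Orm2, both in edgeR. Without control replicate 3 the value for Orm1 was -0.10, and that for Orm2 turned to 0.48 with SE 0.21 and an unadjusted p of 0.0603. The ratio of Orm2 to Orm1 in FPKM was 0.0686, 0.0569 and 0.179 in the controls and 0.0783, 0.153 and 0.0730 in the AAV8-TBG-Cre livers, so control replicate 3 and AAV8-TBG-Cre replicate 2 had the larger share of Orm2.

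Lcn2 encodes a lipocalin that withholds iron from bacteria by binding their siderophores, and hepatocytes and neutrophils both make it. Lcn2 (NCBI gene 16819, chr2:32384637-32387739) was at 60.2, 42.2 and 297.4 CPM in the controls and at 146.5, 119.5 and 52.2 CPM in the AAV8-TBG-Cre livers. The groups overlapped fully, since control replicate 3 lay above all AAV8-TBG-Cre livers and AAV8-TBG-Cre replicate 3 lay among the lower controls. The log2 fold change was -0.33 with SE 0.72 and an adjusted p of 0.832 in edgeR. Without control replicate 3 it turned to 1.04 with SE 0.42, unadjusted p = 0.0435 and adjusted p = 0.256 in edgeR. Over 16 alternatives the adjusted p ran from 0.256 to 0.998. That liver was singled out with Lcn2 among its high values, so the call without it is not an independent test. The 11 neutrophil markers summed to 15.6 to 16.9 CPM in the controls and 22.9 to 24.1 CPM in the AAV8-TBG-Cre livers, with 3 of the 5 tested called higher and 1, Ly6g, called lower, and with the defining granule genes Ngp, Camp, Ltf, Mpo and Elane below 2 CPM in every library. In control replicate 3, with the highest Lcn2, this sum was 16.9 CPM. Over all genes tested, 12.0% were called higher and 8.41% lower. The part of the neutrophil markers in the Lcn2 values was not tested.

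**Figure D2:**
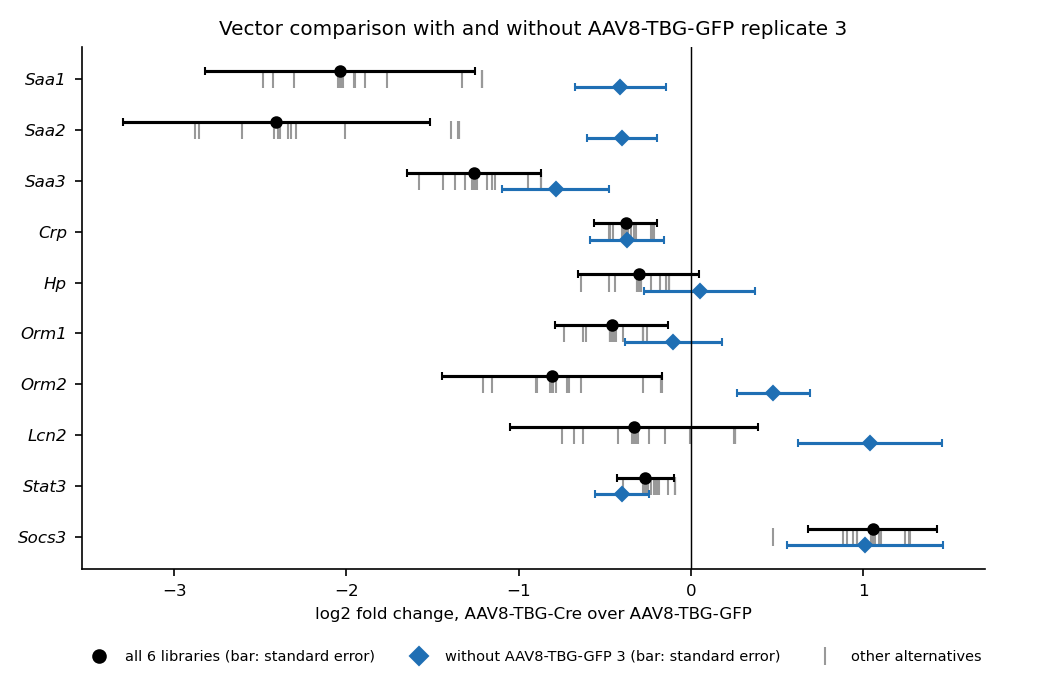
Log2 fold change of AAV8-TBG-Cre over AAV8-TBG-GFP livers (horizontal axis) for the 10 members, from all 6 libraries (circles) and without AAV8-TBG-GFP replicate 3 (diamonds), with bars of 1 standard error and ticks for the other alternatives. Leaving out that liver moved Saa1 from -2.04 to -0.41 and Saa2 from -2.41 to -0.40, turned Hp, Orm2 and Lcn2 to positive values, and moved Crp and Socs3 by less than 0.05.

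Stat3 encodes the factor that carries the IL-6 signal to the nucleus. Stat3 (NCBI gene 20848, chr11:100886806-100939594, minus strand) was at 172.1, 174.2 and 130.7 CPM in the controls and at 155.2, 125.4 and 116.6 CPM in the AAV8-TBG-Cre livers. Control replicate 3 was the lowest control here, and it lay below AAV8-TBG-Cre replicate 1, so the groups overlapped. The log2 fold change was -0.26 with SE 0.16 and an adjusted p of 0.409 in edgeR, and without control replicate 3 it was -0.40 with SE 0.16 and an unadjusted p of 0.0409.

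Stat3 was the member with 3 transcripts in the files. The longest, of 4520 bases, took 83.4%, 75.0% and 85.7% of its fragments in the controls and 76.4%, 77.5% and 80.8% in the AAV8-TBG-Cre livers. A transcript 3 bases shorter took 10.2%, 21.9% and 11.2%, then 16.6%, 21.2% and 15.3%, and another, 50 bases shorter, took the rest, between 1.29% and 7.04%. The shares overlapped between the groups for all 3 transcripts, which share nearly all of their fragments.

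Socs3 encodes the inhibitor that STAT3 induces and that closes the feedback loop. Socs3 (NCBI gene 12702, chr11:117966079-117970336, minus strand) was at 10.4, 16.3 and 12.5 CPM in the controls and at 18.0, 18.4 and 45.1 CPM in the AAV8-TBG-Cre livers, on 204 to 937 fragments per library. Each AAV8-TBG-Cre liver lay above each control, in FPKM as well as in CPM, and AAV8-TBG-Cre replicate 3 lay far above the other 2. Between the vectors the log2 fold change was 1.06 with SE 0.37, unadjusted p = 0.0233 and adjusted p = 0.171 in edgeR. Without AAV8-TBG-Cre replicate 3 it fell to 0.48 with SE 0.20 and unadjusted p = 0.0498, and without control replicate 3 it was 1.01 with SE 0.45 and unadjusted p = 0.0621. Without control replicate 1, the lowest library, it was 0.91 with unadjusted p = 0.0785. Its adjusted p ran from 0.0619 to 0.391 over 16 alternatives, and it was called in 13 of them.

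The libraries carry names of a short or a long form in the labels, which do not say what the form marks. Short names belong to AAV8-TBG-Cre replicate 1 and to control replicates 1 and 2, and the other 3 libraries, control replicate 3 among them, have long names. Within the short names the log2 ratio of AAV8-TBG-Cre to AAV8-TBG-GFP was 0.03 for Saa1 and -0.05 for Saa2, and within the long names, where control replicate 3 is the only control, it was -3.55 and -3.94. Orm2 had 0.66 and -2.03, Lcn2 1.52 and -1.79, Hp 0.56 and -1.17, and Orm1 0.34 and -1.28, so the sign of these 4 turned with the form. Saa3 kept its sign with -1.01 and -1.81, as did Crp with -0.20 and -0.50, Stat3 with -0.16 and -0.11 and Socs3 with 0.44 and 1.34. With this form as a term of the fit, Socs3 was at 0.89 with an unadjusted p of 0.0618 in edgeR and was not called, and Saa1, Saa2 and Saa3 were called lower.

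The high values of control replicate 3 reached beyond the members. Of 27 other positive acute phase genes tested (28 listed), 17 were at least 1.2-fold above the mean of control replicates 1 and 2 in that liver, which is 63.0%, against 19.0% of all genes tested. Their median log2 difference from that mean was 0.48, against 0.01 over all genes and 1.02 over the members. Examples chosen after their values were seen are Apcs, serum amyloid P, at 49.2, 39.6 and 137.8 CPM in the controls, and Lrg1, a leucine-rich glycoprotein, at 835, 882 and 2025 CPM. Hamp, the iron hormone hepcidin that IL-6 can induce, went the other way, with 246, 612 and 203 CPM. Of 14 negative acute phase genes, whose plasma proteins decline in inflammation, 8 were at least 1.2-fold higher in that liver, with a median log2 difference of 0.29. The signalling lists were mixed. All 4 tested IL-6 family ligand genes were at least 1.2-fold higher there, with a median log2 difference of 0.46. That fold was also reached by 3 of 13 JAK-STAT kinases and factors and 4 of 19 STAT3 target genes. It was reached by 4 of 24 genes of the IL-1, TNF and NF-kB list. In the remaining lists, 0 of 9 receptor genes and 0 of 15 JAK-STAT inhibitor genes reached it. Of the 4 ligand genes, Clcf1 was below 1 CPM in every control, where counting error is large. Cell type markers differed in that liver too. Their median log2 difference was -0.81 for endothelial, -0.52 for stellate cell and fibroblast, -0.39 for cholangiocyte and -0.22 for macrophage and Kupffer cell markers. It was 0.12 for hepatocyte and 0.70 for recruited macrophage markers.

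**Figure D3:**
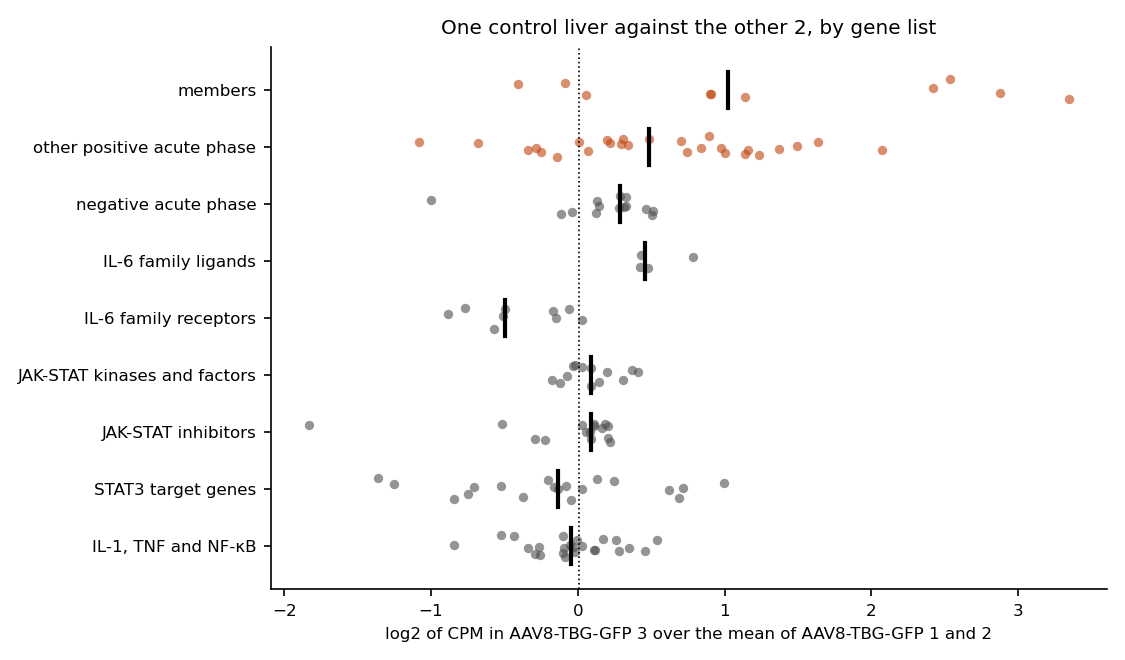
Log2 of the CPM in AAV8-TBG-GFP replicate 3 over the mean of AAV8-TBG-GFP replicates 1 and 2 (horizontal axis) for the tested genes of 9 lists, with 1 point per gene and a black bar at the median of each list. The medians lie at 1.02 for the members, 0.48 for other positive acute phase genes, 0.46 for the 4 ligand genes and 0.29 for negative acute phase genes, and at or below 0.09 for the other 5 lists.

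Genes that follow a member most closely over the 6 libraries were sought for the 3 members with the widest range, by the root mean square difference of log2 CPM after each gene was centred on its mean. Pttg1, the securin gene, was nearest to both Saa1 (0.43) and Saa2 (0.46), at 2.54, 2.70 and 18.0 CPM in the controls and 3.05, 3.49 and 2.02 CPM in the AAV8-TBG-Cre livers. Gm15401 and Raet1e came next for both, at 0.64 and 0.70 for Saa1 and 0.74 and 0.79 for Saa2. Adam11 was nearest to Lcn2 (0.33), at 8.74, 6.07 and 25.2 CPM and then 21.8, 13.2 and 4.86 CPM, followed by Adrbk2 (0.49) and Cyp2a22 (0.50). All 6 genes were highest in control replicate 3, which the selection favoured, because Saa1, Saa2 and Lcn2 were themselves highest there.

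In the comparison of the vectors, 2 of the 27 other positive acute phase genes were called higher and 5 lower, or 25.9% against 20.5% of all genes, with a median log2 fold change of -0.33 against -0.01 over all genes tested. Il1rn, the IL-1 receptor antagonist, was at 0.94 (adjusted p = 0.0729 in edgeR) and Cd14, the coreceptor for lipopolysaccharide, at 0.96 (adjusted p = 0.138). The lower ones were led by the serpin Serpina3m at -0.99 (adjusted p = 0.116) and the pantetheinase Vnn1 at -1.10 (adjusted p = 0.131). Saa4, the constitutive serum amyloid A gene, was also called lower, at 753, 835 and 627 CPM in the controls and 600, 216 and 244 CPM in the AAV8-TBG-Cre livers, and control replicate 3 was the lowest control for it. The most abundant gene of the list, the serpin Serpina3k, had a log2 fold change of -0.19 with adjusted p = 0.808. Without control replicate 3, 8 genes of the list were called and the median was -0.05. Il1rn, Cd14, Serpina3m and Vnn1 were called in all 16 alternatives, and Saa4 in 12.

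Of the 14 negative acute phase genes, 3 were called higher and 2 lower (35.7% against 20.5% of all genes), with a median of -0.10. Apoa2, an apolipoprotein of high-density lipoprotein, was at -0.61 (adjusted p = 0.142 in edgeR) and Ttr, the thyroid hormone carrier transthyretin, at -0.57 (adjusted p = 0.194). Itih2, a heavy chain of the inter-alpha-trypsin inhibitor, was at 0.54 (adjusted p = 0.172) and Ahsg, fetuin A, at 0.53 (adjusted p = 0.236). Albumin (Alb), the most abundant, was at -0.19 with adjusted p = 0.755. Apoa2 was called in 15 of 16 alternatives, Itih2 in 13, and Ttr and Ahsg in 9 each.

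Among the ligands, Il6 itself had 2 fragments in the 6 libraries together, both in control replicate 1 (0.102 CPM). A count of 0 in the other 5 allows up to 3 fragments per library, or 0.123 to 0.157 CPM over the 6 libraries, so a difference in Il6 below this level was not detectable at this depth. Of 10 IL-6 family ligand genes 4 were tested, and Clcf1, cardiotrophin-like cytokine factor 1, was the 1 called, or 25% against 20.5% of all genes. Clcf1 was at 0.76, 0.71 and 0.99 CPM in the controls and at 2.67, 8.46 and 3.80 CPM in the AAV8-TBG-Cre livers, on 14 to 206 fragments per library, with a log2 fold change of 2.59, SE 0.48 and adjusted p = 0.0552 in edgeR. Every AAV8-TBG-Cre liver lay above every control, and Clcf1 was called in all 16 alternatives with adjusted p from 2.52e-05 to 0.199. The most abundant ligand gene, Ctf1 or cardiotrophin 1, was at -0.14 with adjusted p = 0.719.

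Of the 9 receptor and shedding genes, 1 was called higher and 0 lower, or 11.1% against 20.5% of all genes. It was Osmr, the oncostatin M receptor, with a log2 fold change of 0.90 and adjusted p = 0.172 in edgeR. Osmr was at 5.49, 5.25 and 3.61 CPM in the controls and at 5.49, 12.8 and 8.52 CPM in the AAV8-TBG-Cre livers, so the groups met at the level of replicate 1, and it was not called without AAV8-TBG-Cre replicate 2 or control replicate 3. The IL-6 receptor itself, Il6ra, was at 83.0, 70.6 and 69.4 CPM and then 75.3, 47.1 and 67.2 CPM, with a log2 fold change of -0.23 (SE 0.18, adjusted p = 0.506). Il6st, the shared signal subunit, was also at -0.23 (SE 0.16, adjusted p = 0.448), and Lifr, the most abundant of the list, at -0.26 (SE 0.23, adjusted p = 0.561).

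Of 13 tested JAK-STAT kinases and partner factors (14 listed), 0 were called higher and 3 lower (23.1% against 20.5% of all genes), with a median of -0.20. Cebpb, the C/EBP factor that acts with STAT3 on acute phase promoters, was at 251, 231 and 256 CPM in the controls and 187, 139 and 145 CPM in the AAV8-TBG-Cre livers. All AAV8-TBG-Cre livers lay below all controls, and control replicate 3 was close to the other controls. Its log2 fold change was -0.65 with SE 0.15 and adjusted p = 0.0735 in edgeR, and it was called in all 16 alternatives, with adjusted p from 0.00132 to 0.207. Stat5a was called lower at -0.47 (adjusted p = 0.0792), and Cebpa, the most abundant factor, was at 0.16 (adjusted p = 0.646). The kinases Jak1, Jak2 and Tyk2 had log2 fold changes of 0.02, 0.03 and 0.14.

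Of the 15 other JAK-STAT inhibitors, 1 was called, Socs5, or 6.67% against 20.5% of all genes. Socs5 had a log2 fold change of 0.37 and adjusted p = 0.212 in edgeR and a call in 7 of 16 alternatives. The most abundant, the phosphatase Ptpn11, was at -0.15 (adjusted p = 0.507). Cish and Socs2, the STAT5-induced relatives of Socs3, had log2 fold changes of 0.48 (SE 0.86) and 0.60 (SE 0.30) and were not called. When control replicate 3 was left out, 0 of the 15 were called.

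Of 19 tested STAT3 target genes (20 listed), 5 were called higher and 2 lower (36.8%), against 12.0% higher and 8.41% lower over all genes, with a median of 0.24. The higher ones were led by Timp1, an inhibitor of metalloproteinases, at 2.17 (adjusted p = 0.0595 in edgeR), the adhesion molecule Icam1 at 0.94 (adjusted p = 0.0821), the survival factor Mcl1 at 0.44 (adjusted p = 0.0823) and cyclin D1 (Ccnd1) at 1.41 (adjusted p = 0.112). Pim3, the most abundant of the list and a kinase gene, was called lower at -0.92 (adjusted p = 0.152), but not without control replicate 3 or AAV8-TBG-Cre replicate 2 or 3. Leaving out control replicate 3 left 6 called. Timp1, Icam1 and Ccnd1 are also expressed by cells other than hepatocytes, whose markers are given below.

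**Figure D4:**
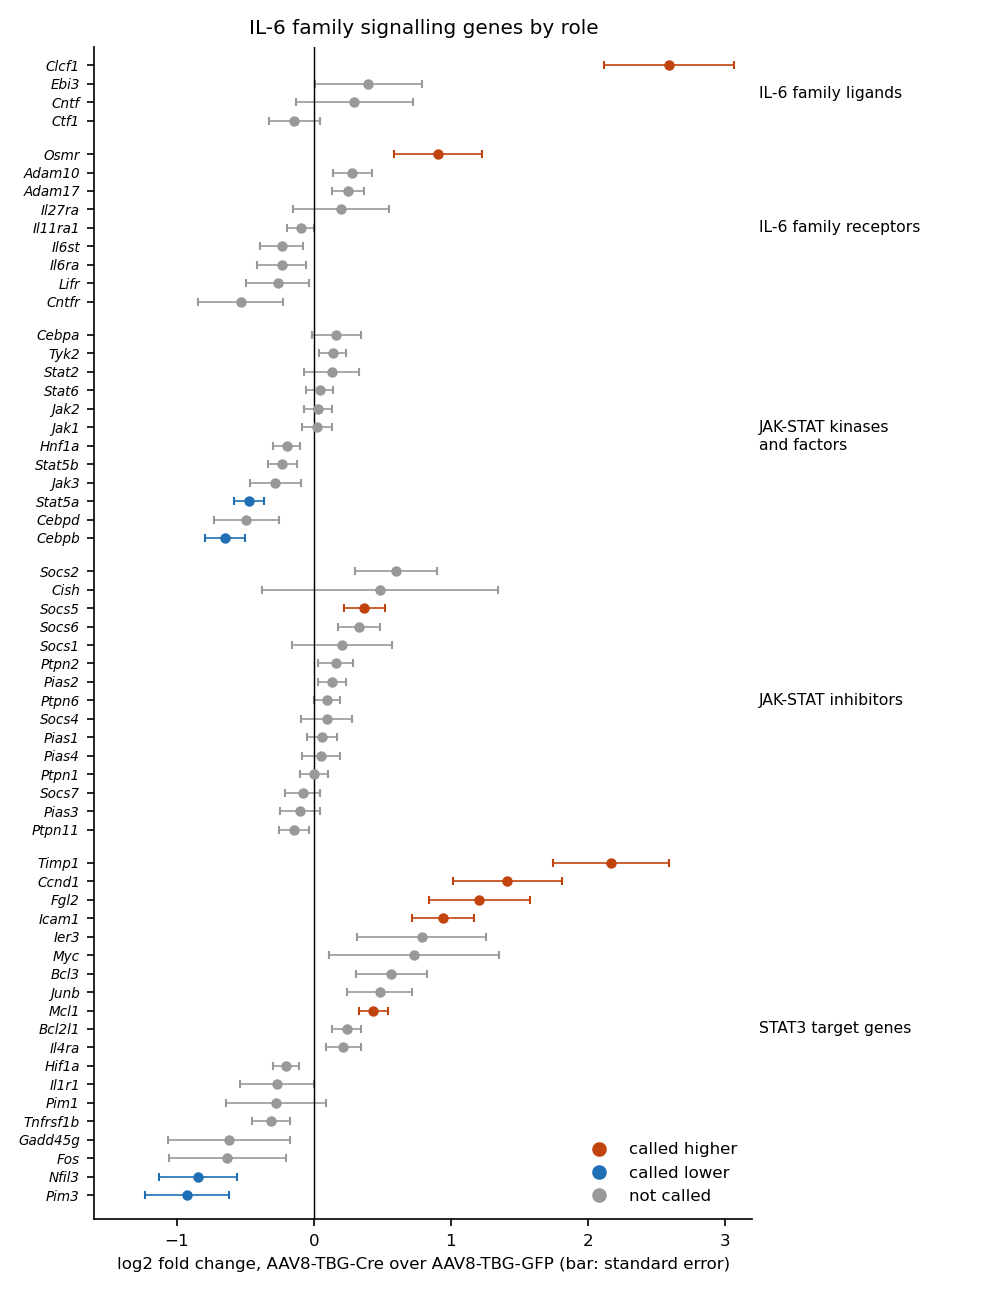
Log2 fold change of AAV8-TBG-Cre over AAV8-TBG-GFP livers (horizontal axis, bars of 1 standard error) for tested genes of 5 IL-6 family lists, coloured by whether they were called. Clcf1, Osmr, Socs5 and 5 STAT3 target genes were called higher, and Cebpb, Stat5a, Pim3 and Nfil3 lower, while Il6ra, Il6st, Jak1, Jak2 and Tyk2 lie within 0.25 of 0 and were not called.

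In the parallel IL-1, TNF and NF-kB list, 7 of 24 tested genes (27 listed) were called higher and 0 lower (29.2%), against 12.0% higher and 8.41% lower over all genes. Nfkbie, an inhibitor of NF-kB, was at 0.81 (adjusted p = 0.0918 in edgeR), the subunit gene Nfkb2 at 0.46 (adjusted p = 0.109), the chemokine Ccl2 at 1.30 (adjusted p = 0.118) and the deubiquitinase Tnfaip3 at 0.67 (adjusted p = 0.123). Each of these 4 was higher in all AAV8-TBG-Cre livers than in all controls. The most abundant gene, the coreceptor Il1rap, was at -0.37 with adjusted p = 0.298. The count of called genes without control replicate 3 was 6.

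Of 16 genes whose proteins receive or bind acute phase proteins, 6 were called higher and 1 lower (43.8%), against 12.0% higher and 8.41% lower over all genes, with a median of 0.69. Cd163, the macrophage receptor that takes up haptoglobin bound to hemoglobin, was the gene of these lists with an adjusted p under 0.05. It was at 7.57, 5.36 and 4.82 CPM in the controls and at 1.62, 1.07 and 1.16 CPM in the AAV8-TBG-Cre livers, a log2 fold change of -2.21 with SE 0.28 and adjusted p = 0.0330 in edgeR. The groups did not overlap, and control replicate 3 was the lowest control. Cd163 was called in all 16 alternatives, 7 of them with an adjusted p under 0.05, and its adjusted p ran from 6.93e-09 to 0.141. Hmox1, heme oxygenase 1, which breaks down the heme that arrives this way, was called higher at 1.22 (adjusted p = 0.156), from 25.1, 26.4 and 30.0 CPM to 25.5, 96.5 and 68.1 CPM, with AAV8-TBG-Cre replicate 1 at the level of the controls.

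The receptors for Fc parts and pentraxins, Fcgr3 at 1.18 (adjusted p = 0.0620) and Fcgr1 at 1.21 (adjusted p = 0.0701), and Tlr2, to which serum amyloid A can bind, at 1.05 (adjusted p = 0.0948), were called higher in edgeR. Scarb1, the most abundant of these genes and a lipoprotein receptor, was at 0.18 with adjusted p = 0.519. The count of called partner genes was also 7 without control replicate 3.

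Macrophages express Cd163, Fcgr1, Fcgr3 and Tlr2, and their markers moved with the vector. The summed level of 10 macrophage and Kupffer cell markers was 252 to 290 CPM in the controls and 379 to 529 CPM in the AAV8-TBG-Cre livers, with 7 of 10 called higher. That of 8 recruited macrophage markers was 20.1 to 45.7 and 52.2 to 176 CPM, with 7 called higher. Cholangiocyte markers summed to 51.2 to 105 and 277 to 554 CPM, with 8 of 8 tested called higher, and stellate cell and fibroblast markers to 209 to 319 and 352 to 726 CPM, with 4 of 9 called higher. AAV8-TBG-Cre replicate 2 had the highest sum for all 4 of these lists. Over all genes tested, 12.0% were called higher and 8.41% lower. The 8 endothelial markers went the other way, with 0 called higher, 1 called lower and a median log2 fold change of -0.29. Their sums overlapped, at 179 to 290 CPM in the controls and 189 to 222 CPM in the AAV8-TBG-Cre livers. The part of these cells in the values above was not tested. As groups, the AAV8-TBG-Cre livers had lower Saa3 and Cd163 and higher macrophage marker sums than the controls. Among the AAV8-TBG-Cre livers, Saa3 was highest in replicate 2, at 3.53 CPM, where the macrophage marker sums were also highest.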

How the data were processed

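Bulk liver RNA was measured in 3 AAV8-TBG-GFP and 3 AAV8-TBG-Cre mice, grouped by the vector in the labels. Per transcript, the authors deposited an expected count (estimated fragments, shared between similar transcripts, not normalized, 45.4% of them whole numbers) and FPKM per transcript and gene. The labels name HISAT2, Bowtie2, RSEM and build mm10, and the methods of the study name STAR, HTSeq and DESeq2. Versions and the annotation were not given in the sources used here. The protocol in the labels offers poly(A) selection or rRNA depletion without saying which was used, and does not state strand.

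Expected counts were added up over the transcripts of each NCBI gene and then rounded. All genes that passed filterByExpr were tested with the quasi-likelihood test of edgeR 4.0.16 (R 4.3.3, TMM, vector as the only factor) with Benjamini-Hochberg adjustment over 13431 genes, with standard errors taken from the quasi-F statistic. A gene was called at an unadjusted p under 0.05 with a fold change of at least 1.2. The alternatives changed the tool (DESeq2 1.42.0, or limma 3.58.1 on log2(FPKM + 1) and on log2(FPKM + 0.1), keeping genes that reached 0.5 FPKM in 3 libraries, or all genes), the normalization (RLE, upper quartile), the filter (none, or a minimum of 10 counts per library) or the design (a replicate block, or a term for short against long library names), or left out each liver. The steps were tested on simulated data. Libraries of a group differed by more than sampling noise (chi-square per gene 24.9 or more). P-values set the difference between the groups against the spread between these livers, which was estimated with information shared across genes. CPM of genes near 1 CPM also carries large counting error.

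The members and gene lists were chosen with earlier results of these data known. All members are named with every value. Of each other list the text names genes with an adjusted p under 0.05, then up to 4 called genes with the smallest p, and the most abundant gene. Genes of the lists named beyond this rule, such as Saa4, Hamp, Il6ra, Il6st, Hmox1, Cish, Socs2 and the kinases, were chosen after their values were seen. Values of 1 gene of the JAK-STAT kinases and factors are not reported here. Symbols were matched by the files' own symbols and NCBI gene IDs, and coordinates and promoters were taken from RefSeq tables of GRCm38.p6. Coding sequences came from GENCODE vM1.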

Additional observations from a re-analysis of the deposited data

How the results depend on the processing

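Of the log2 fold changes of the 10 members under 16 alternatives (15 for Saa2, for which DESeq2 gave no p, as for 37 genes in all), 129 kept their direction and side of the threshold, 18 lost a call, 5 gained a call in the same direction and 7 turned sign, 1 of them with a call (Lcn2 without AAV8-TBG-GFP replicate 3). Leaving out each liver gave -0.64 to 0.051 for Hp, -1.20 to 0.48 for Orm2 and -0.75 to 1.04 for Lcn2, each positive without AAV8-TBG-GFP replicate 3, and Lcn2 was also positive under the replicate block (0.25) and with limma on FPKM (0.26 with either pseudocount and without the filter). Without each liver in turn, 0 to 1 members were called higher and 1 to 5 lower. Members called lower were 1 with limma at either pseudocount and 0 without its filter, and those called higher were 0 with short against long library names as a term. With DESeq2, 1 member had an adjusted p under 0.05.

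Without each liver in turn, genes called numbered 4 to 14 of the other positive acute phase list (14 without AAV8-TBG-Cre replicate 1), 1 to 6 of the negative acute phase list, 0 to 2 of the receptors, 2 to 5 of the kinases and factors, 0 to 2 of the inhibitors, 5 to 11 of the STAT3 targets and 4 to 7 of the partners. The negative acute phase list had 3 with the name form as a covariate and 2 with limma without a filter, and the kinases and factors 5 without a filter on low counts. Ligands numbered 2 with DESeq2 and without a filter. Receptors numbered 2 with upper quartile normalization, under the block and with limma on log2(FPKM + 0.1), and 0 with the name form and with limma without a filter. Inhibitors numbered 0 with DESeq2, without a filter and with the name form, 2 with upper quartile normalization, and 3 and 5 with limma at pseudocounts of 1 and 0.1. The causes were not tested. The B cell marker median had no value with at least 10 counts in every library, where no marker was left.

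Over all genes, 1618 were called higher and 1129 lower. The split was 1922 and 737 with upper quartile normalization, 1880 and 365 with limma on log2(FPKM + 1), 1995 and 376 on log2(FPKM + 0.1) and 2019 and 364 without its filter, and limma with its filter moved the median of all genes to 0.11 and 0.14. Genes with an adjusted p under 0.05 numbered 125, then 1157 with DESeq2, 372 without a filter, 214 with the name form, 76 with the count minimum, 66 with upper quartile normalization, 7 under the block, 9 to 27 with limma and 0 to 928 without each liver (928 without AAV8-TBG-Cre replicate 1). The replicate numbers showed no clear pairing of the livers. Same-numbered livers deviated with correlations of 0.00915, -0.263 and 0.209, and replicate 3 alone correlated best with its own number. With so few livers these correlations cannot exclude pairing. With the block 2597 genes were called, against 2747, Saa1 (-1.33, unadjusted p = 0.129) and Saa2 (-1.40, unadjusted p = 0.155) were not called and Crp was (-0.40, unadjusted p = 0.0316).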
